A study of Mus musculus with 2 samples.

Results

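Chromosome 2 carried 568 of the 5942 Nacc1 peaks listed for N2A cells, or 9.56% of the list, and these 568 peaks are described here. They were chosen by their position alone, as every listed peak on chromosome 2, and no peak was left out for a low score. The list comes from chromatin immunoprecipitation followed by sequencing (ChIP-seq) in N2A, a mouse neuroblastoma cell line grown without any treatment that the labels name. There was 1 library precipitated with an antibody against Nacc1 and 1 input library made with no antibody, and the peak list of the Nacc1 library was analysed. With no replicate, no value carries a replicate error, and because peak calling itself chose the members, all comparisons are descriptions without a test. Intervals of shares are 95% exact binomial (Clopper-Pearson) intervals and cover counting error only. Those of differences between medians were made from the order statistics of both medians. The number of reads behind the list is unknown, and so is the number of weaker sites that it leaves out.

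Nacc1 is a nuclear protein with a BTB/POZ domain, through which it pairs with itself and with partner proteins, and a BEN domain, a fold that contacts DNA. It is known as a regulator of transcription in neurons and in tumour cells, often together with corepressors. A ChIP-seq peak marks a stretch of DNA recovered with the protein, directly or through a partner. Mouse chromosomes other than Y carry the centromere at one end, and positions are counted from that end. Positions are given on build mm9, counted from 1. Genes were known here only on a different assembly, and therefore no gene, exon, promoter or sequence is assigned to a peak here.

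Nacc1 peaks on chromosome 2 were unevenly spread, with the densest stretches near the proximal end and inside the distal part. The listed peaks ran from 3059519 to 181663316, a span of 178.6 Mb. The first 3.94 Mb of that span, up to 7 Mb, took up 2.21% of it and held 53 peaks, or 13.5 peaks per Mb. Its limit, like that of the distal part, was set with earlier counts of the chromosome known. The distal part, chr2:155000001-181663316, took up 14.9% of the span and held 181 peaks, or 31.9% of those on the chromosome (28.05% to 35.9%), at 6.79 peaks per Mb. The 148 Mb between them held 334 peaks, at 2.26 per Mb, and were not evenly filled. Of their stretches, chr2:25000001-37000000 held 66 peaks, or 5.5 per Mb, and chr2:37000001-60000000 held 21, or 0.91 per Mb, both stretches chosen after the counts were seen.

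**Figure D1:**
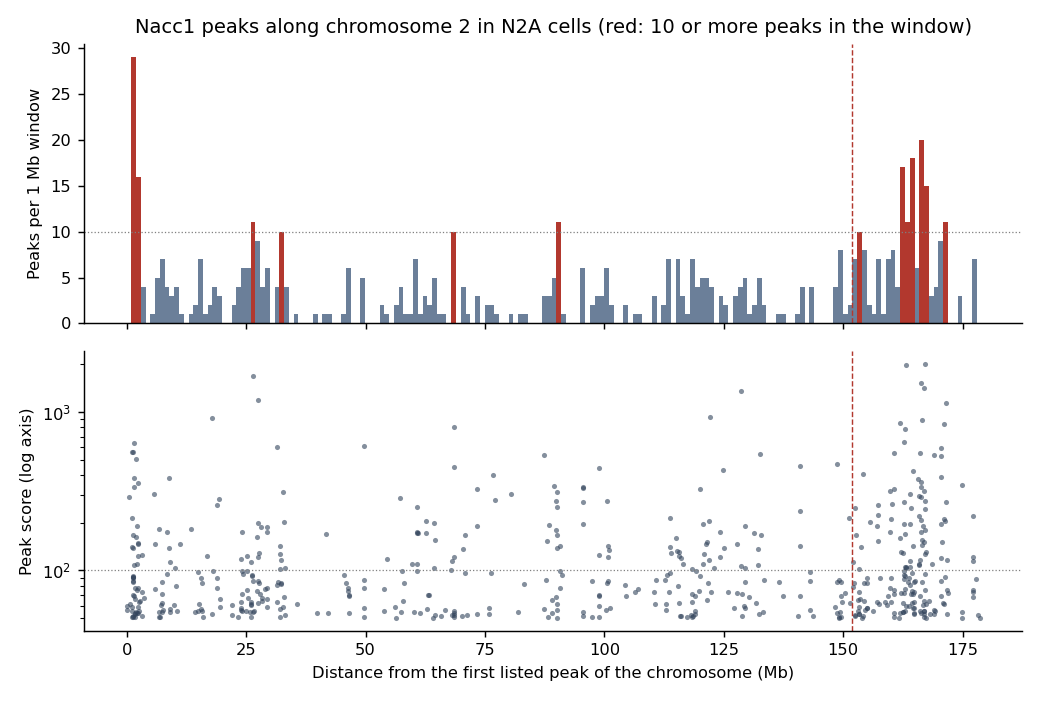
Number of peaks in each 1 Mb window (upper panel) and score of each peak on a log axis (lower panel) against the distance in Mb from the first listed peak of chromosome 2. Red bars are the 13 windows with 10 or more peaks, the dashed line marks the start of the distal part, and dotted lines mark 10 peaks and a score of 100; the fullest window, with 29 peaks, stands near the proximal end and a block of red bars stands in the distal part.

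Counted in 1 Mb windows by peak midpoint, chromosome 2 had 177 windows wholly inside its span. The median window held 2 peaks, 54 windows (30.5%) held none and 31 held exactly 1. Windows with 10 or more peaks, called crowded here, numbered 13, or 7.34% of the windows (4.0% to 12.2%), against 4.68% of the windows of the other autosomes. Empty windows made up 36.2% of the windows of the other autosomes. The 13 crowded windows together held 189 peaks, 33.3% of the chromosome's total. Of them, 2 lay before 7 Mb, 7 in the distal part and 4 between. Counting only peaks with a score of 100 or more left 2 crowded windows, chr2:4000001-5000000 and chr2:169000001-170000000. At the edge of the definition, 3 windows held exactly 10 peaks and 2 held 9.

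The fullest window was chr2:4000001-5000000, with 29 peaks. Its neighbour, chr2:5000001-6000000, held 16. The peaks of the fullest window were bunched rather than evenly spread, since 21 of the 29 lay within 302 kb, at chr2:4220262-4522477. The distance between successive peaks in the window had a median of 12.9 kb and ran from 221 bp to 203 kb. Of the 29 peaks, 20 had another peak within 10 kb, forming 8 groups, and 9 stood apart.

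Scores in this window were near those of the chromosome as a whole. The score of a peak is, in the output of MACS 1.4, −10 times the log10 of the caller's p-value, so that a score of 50 stands for 1e-05 and a higher score for stronger evidence of enrichment. Scores in the window had quartiles of 55.6, 85.9 and 140, and 10 of the 29 peaks, or 34.5% (17.9% to 54.3%), reached a score of 100. Over all peaks of chromosome 2 the median was 84.0 and the share reaching 100 was 39.3%, against 38.4% on the other autosomes. Its strongest peak, chr2:4508420-4509371, was 952 bp wide with a score of 639. It lay 364 bp from chr2:4507108-4508055, with a score of 334. A further 2 peaks exceeded 500, at chr2:4406893-4407497 (score 560) and at chr2:4143051-4144097 (score 556). A few strong peaks thus stood among weak ones along the window.

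**Figure D2:**
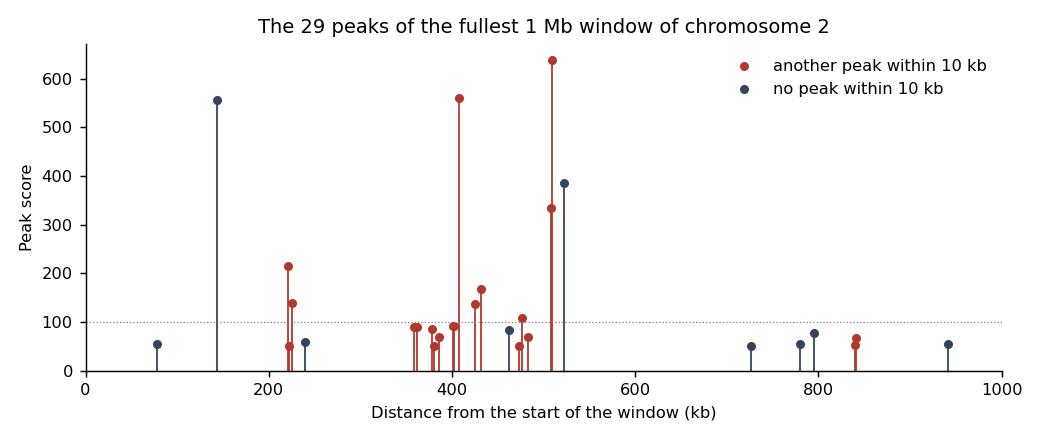
Score of each of the 29 peaks in chr2:4000001-5000000 against its distance in kb from the start of the window. Red stems are the 20 peaks with another peak within 10 kb, blue stems the 9 without, and the dotted line marks a score of 100, which 10 peaks reached.

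In the distal part the peaks concentrated on a block of 6 windows, chr2:165000001-171000000, a stretch singled out after its counts were seen. It held 87 peaks, or 14.5 per Mb. The windows from 169000001 to 170000000 and from 167000001 to 168000000 held 20 and 18 peaks. The windows beginning at 165000001, 170000001 and 166000001 held 17, 15 and 11. The remaining window, from 168000001, held 6 peaks, of which 5 reached a score of 100, and had a median score of 166. These windows were not alike in strength. The window of 20 peaks had a median score of 153, and 13 of its peaks reached 100, while the window of 18 peaks had a median of 73.5, with 6 reaching 100 and a highest score of 424. Further along, chr2:174000001-175000000 held 11 peaks. Beyond 175000001 the distal part thinned out, with 12 peaks in 6.66 Mb.

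Between 7 Mb and the distal part, the fullest windows were chr2:29000001-30000000 and chr2:93000001-94000000, with 11 peaks each. Both held the same number of peaks at different scores. The first had a median score of 63.4 with 2 peaks of at least 100, although one of these was the third strongest peak of the chromosome. The second had a median of 138, with 6 peaks of at least 100 and none above 313. Counted in steps of 10 Mb, density was lowest from 80 to 90 Mb, with 4 peaks, and was 1.0 peak per Mb in each of the steps from 40 to 50, 50 to 60 and 140 to 150 Mb.

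Strong peaks were found before 7 Mb, in the distal part and between them. The 12 peaks beyond 175000001 held none, but they are too few to set against the chromosome's share of 5.11%. Scores of at least 500 were listed for 29 peaks, or 5.11% (3.4% to 7.3%), against 4.41% of peaks on the other autosomes. Of these 29, 15 (51.7%, 32.5% to 70.6%) lay in the distal part, which held 31.9% of all peaks, 4 before 7 Mb and 10 between. The lowest of the 29 had a score of 505, and the next 2 below them, both outside the distal part, had 466 and 459. Chromosome 2 had the highest number of such peaks of any autosome, and its share of them was the sixth highest.

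The highest score, 2007, belonged to chr2:170155855-170157052, a 1198 bp peak that ranked number 21 in the whole list. Its nearest listed neighbour was 10.8 kb away. The next, with a score of 1967, was chr2:166284811-166285940, with its nearest neighbour at 22.2 kb. The third was in the middle of the chromosome, at chr2:29426958-29428182, with a score of 1683 and another peak only 337 bp away. These leading sites therefore included peaks with no other within 10 kb, in windows of 15 and 11 peaks, and a peak with a close companion.

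The next 5 peaks in score were chr2:169442993-169444439 (score 1513), chr2:170048605-170049777 (1423), chr2:131733992-131735124 (1352), chr2:30551529-30553804 (1183) and chr2:174556326-174557404 (1143). The peak at 30551529 was also the widest of the chromosome, at 2276 bp. The highest-scoring peak with no other listed peak within 100 kb was chr2:125181344-125182293, with a score of 926 and its nearest neighbour 162 kb away. Another strong site outside the distal part was chr2:20877401-20878466, with a score of 916.

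The next peaks in rank again lay mainly at the distal end. They were chr2:169458115-169458653 (score 892), chr2:164913545-164915224 (853), chr2:174172610-174174434 (841), chr2:71482015-71482702 (807), chr2:165925772-165926513 (785) and chr2:165793713-165794948 (644). The peak at 169458115 was narrow for its score, at 539 bp, the least wide of the 20 strongest. The remaining members of the 20 strongest were chr2:4508420-4509371 in the fullest window, chr2:52753069-52753803 (607), chr2:34619706-34620571 (601) and chr2:173595098-173596130 (594). Of the 20, 11 lay in the distal part, 12 in a crowded window and 11 within 10 kb of another peak. Their median width was 1104.5 bp.

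Scores across all 568 peaks ranged from 50.03 to 2007 around a median of 84.0, and their quartiles were 59.0 and 150. Peaks of the other autosomes together had a median of 81.4 and quartiles of 59.2 and 138. On chromosome 2, 223 peaks scored 100 or more, that is 39.3% (35.2% to 43.4%), against 38.4% on the other autosomes. The majority of peaks therefore scored between 50 and 100, on chromosome 2 as on the other autosomes. The lowest scores of chromosome 2, 50.03 for each, were at chr2:67098363-67098644 and chr2:59424839-59425120. They were followed by chr2:164692024-164692409 and chr2:156956522-156956902 (50.1 each) and chr2:93109196-93109476 (50.19). Weak peaks were thus found in the middle and in the distal part.

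By region, the median score was 89.1 in the distal part, 78.0 before 7 Mb and 83.1 between. The upper quartile differed more than the median, at 196 in the distal part and 137 in the middle. Scores of 100 or more were held by 44.8% of distal peaks (37.4% to 52.3%), 37.7% of those before 7 Mb (24.8% to 52.1%) and 36.5% of those between (31.4% to 41.9%). The intervals of the 3 shares overlapped. The distal median exceeded that of the rest of the chromosome by 6.05, and the interval of this difference, from the order statistics of both medians, ran from −10.3 to 31.5 and included 0. The same difference was taken for an equally long end part of each other autosome, which was 14.0% to 46.6% of its span. It ranged from −15.3 on chromosome 18 to 18.9 on chromosome 16, and that of chromosome 2 was the eighth highest.

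Widths followed a different order. The median width was 427 bp on chromosome 2, with quartiles of 348 and 555 bp, and 424 bp on the other autosomes. It was 523 bp before 7 Mb, 418 bp in the middle and 422 bp in the distal part. The peaks near the proximal end were thus wider at a median score no higher than elsewhere on the chromosome. The narrowest peak, chr2:16604657-16604819, spanned 163 bp at a score of 184. The widest after the 2276 bp peak were chr2:174172610-174174434 (1825 bp), chr2:164913545-164915224 (1680 bp), chr2:98506198-98507716 (1519 bp) and chr2:169442993-169444439 (1447 bp). Over the 568 peaks, Spearman's rho of score and width was 0.76 and Pearson's r was 0.72. These are descriptions over peaks of 1 library, in which both measures come from the same reads.

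Many peaks of chromosome 2 had a close neighbour. Another peak lay within 10 kb, edge to edge, of 190 peaks, or 33.5% (29.6% to 37.5%), against 28.2% on the other autosomes, where single chromosomes ranged from 14.7% to 38.4%. Neighbours are counted together, so the peaks are not independent here, and the intervals of these shares are too narrow. Among peaks at or above the median score of the list the order was the reverse, with 22.2% on chromosome 2 and 23.7% on the others. The share was 50.9% before 7 Mb (36.8% to 64.9%), 41.4% in the distal part (34.2% to 49.0%) and 26.3% between (21.7% to 31.4%). Close neighbours are part of what makes a window crowded, so these shares and the window counts are not separate findings. Chained together, the 190 peaks made up 83 groups: 68 pairs, 10 groups of 3 peaks and 5 of 4 or more. Of the 107 distances inside groups, 19 were under 500 bp and the shortest was 117 bp, so some neighbours need not be separate sites.

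Peaks in groups had a median score of 92.0 and peaks with no other within 10 kb one of 79.4. The other autosomes had 96.3 and 76.6. Within a group the members were often unequal. The strongest peak had a score at least 2 times that of the next in 34 of the 83 groups, and the median ratio was 1.70. In 22 groups at least 2 members reached a score of 100, and in 23 groups none did. Scores also ranged widely over all peaks of the chromosome. Matching counts for the other autosomes are not given here, so these group counts only describe chromosome 2.

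The largest group, with 7 peaks over 32.7 kb at chr2:173589111-173621841, contained several strong members. From the centromeric side, the scores were 86.1, 594, 120, 526, 196, 388 and 69.1. The gaps between them ran from 1420 to 6909 bp. Strong and weak peaks alternated along this group, and 5 of the 7 reached 100. A group of 5 peaks over 19.6 kb at chr2:5299045-5318636, in the second window of the proximal cluster, had scores of 110, 75.3, 53.6, 123 and 77.3. It was made of 2 close pairs, with gaps of 361 and 261 bp, around a single weak peak.

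The 3 groups of 4 peaks differed from one another. At chr2:165923530-165935126 the scores were 55.6, 785, 92.1 and 169, so that 1 peak dominated. At chr2:29171203-29184638 they were 60.8, 61.2, 50.7 and 93.5, all below 100. At chr2:98502152-98507716 they were 270, 330, 197 and 335, and the peaks were separated by only 357, 429 and 610 bp. These 4 peaks filled most of 5.57 kb.

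The group at 98502152 also stood alone on its centromeric side, where no peak was listed for 4.37 Mb. On its other side 2 weak peaks followed within the same window, with scores of 55.0 and 51.6. As background, mouse chromosome 2 is known to hold a short repeat-derived stretch in this neighbourhood that collects reads in many ChIP and input libraries whatever the antibody. Whether the input of N2A cells was raised at this group was not tested. Without the 6 peaks of this window, the share of peaks with a neighbour within 10 kb was 33.1%, and the count of crowded windows was again 13.

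Long stretches of chromosome 2 held no listed peak. The median distance between successive peaks was 76.1 kb, with quartiles of 15.4 and 270 kb, compared with a median of 100.8 kb on the other autosomes. Of the 567 distances, 43 were longer than 1 Mb, or 7.58%, against 11.1% on the other autosomes. These 43 empty stretches added up to 97.9 Mb, or 54.8% of the span, and the corresponding share was 62.8% for the other autosomes together. Of the 43, 4 began in the distal part, which took up 14.9% of the span, with 7.66 Mb in all. None began in the block from 165000001 to 171000000. That block took up 3.36% of the span and was singled out for its full windows, which leave little room for such a stretch.

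**Figure D3:**
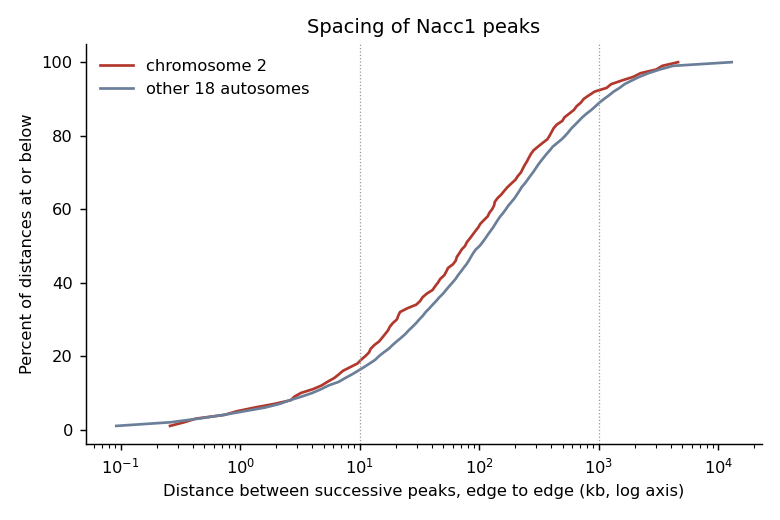
Percent of distances between successive peaks that are at or below a given length, in kb on a log axis, for chromosome 2 (red, 567 distances) and for the other 18 autosomes together (blue, 5293 distances). Dotted lines mark 10 kb and 1 Mb; the curve of chromosome 2 lies above the other between these lines, with a median of 76.1 kb against 100.8 kb.

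The longest empty stretch was chr2:146683876-151285291, of 4.601 Mb, just before the distal part. The peaks on either side of it were weak, with scores of 51.5 and 58.4. It was followed by the longest run of occupied windows on the chromosome, 24 in a row at chr2:151000001-175000000, with 184 peaks. The longest empty stretch and the longest occupied run thus lay side by side.

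Stretches of over 4 Mb were also empty at chr2:94135142-98502151 (4.37 Mb), chr2:86181429-90459389 (4.28 Mb), chr2:38725421-42881769 (4.16 Mb) and chr2:52803302-56854688 (4.05 Mb). The stretch beginning at 86181429 ended at a strong peak, chr2:90459390-90460223, with a score of 532. The next in length were chr2:80104758-83542589 (3.44 Mb), chr2:110133907-113511151 (3.38 Mb), chr2:45140115-48472736 (3.33 Mb), chr2:140405990-143662885 (3.26 Mb) and chr2:104195891-107452762 (3.26 Mb). The 10 longest stretches thus lay between 38 and 152 Mb, away from both ends. In the part from 37000001 to 60000000, 6 of the 43 stretches over 1 Mb began. The stretch chr2:36125784-38725043 began before that part and reached into it. Such a count does not give the length that was empty. That part took up 12.9% of the span and was chosen after its low counts were seen.

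On chromosome 2, 5 of the 568 peaks were more than 1 Mb from any other. The matching count for the other autosomes is not given here. The median score of these 5 peaks was 61.2, and 1 of them reached 100. That peak, chr2:83542590-83543370, was 781 bp wide with a score of 305.

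Against the other 18 autosomes, chromosome 2 was among the more densely occupied, and its proximal end stood furthest from the rest. Over the whole span it had 3.18 peaks per Mb, the fourth highest of 19 autosomes after chromosomes 8 (4.50), 10 (3.36) and 11 (3.31), and 1.30 times the 2.44 of the other autosomes together. In the first 3.94 Mb of the span its 13.5 peaks per Mb were the highest, and the other autosomes ranged from 0.51 to 4.57, with a median of 2.79. That part was bounded at 7 Mb with the full windows of chromosome 2 known. The rank of chromosome 2 there thus follows in part from the choice. In an equally long end part of 26.7 Mb its 6.79 peaks per Mb ranked after chromosomes 8 (11.0) and 11 (7.95). In the part between, its 2.26 per Mb was the fifth highest, within a range of 1.13 to 3.21 for the others.

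**Figure D4:**
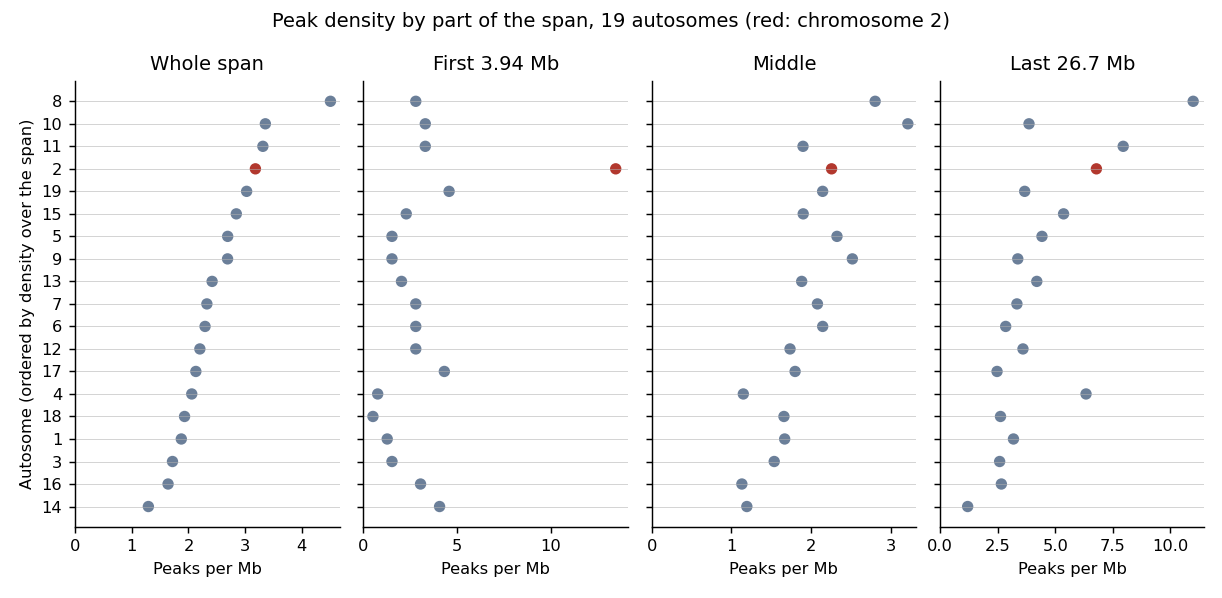
Peaks per Mb on each of the 19 autosomes over the whole span, its first 3.94 Mb, the middle and its last 26.7 Mb, with autosomes in order of density over the span. Chromosome 2 (red) stands at 13.5 peaks per Mb in the first part, where the other autosomes lie between 0.51 and 4.57, and within the range of the others in the remaining panels. The parts were bounded on chromosome 2 with its counts known.

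The first listed peak lay between 3.0 and 13.2 Mb on these chromosomes, so the first parts do not cover the same distance from the centromere. Other measures placed chromosome 2 near the upper end without setting it apart. Its fullest window, with 29 peaks, came after the 41 of chromosome 8, and the other autosomes had a median of 18. Its 13 crowded windows equalled the number on chromosome 11 and followed the 19 of chromosome 8. The distal density was 2.67 times that of the rest of chromosome 2, the fifth highest of the 19 ratios, while chromosome 4 had 5.57 and chromosome 14 had 0.91. The end part took up 14.9% of the span of chromosome 2 and 14.0% to 46.6% of the others, so the ratios rest on unlike remainders. The longest empty stretch of chromosome 2, at 4.601 Mb, was shorter than that of 15 other autosomes, which reached 12.9 Mb on chromosome 1.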

How the data were processed

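ChIP-seq of Nacc1 in N2A cells gave 1 peak list, with no replicate. The tools named per the submitters' processing notes are MACS 1.4, Bowtie2, CASAVA 1.8 and SAMtools, on build mm9. Not given in the sources used here: parameters, read numbers and whether the input served as control. The deposited score of each peak is the caller's own value. It rises with depth and width as well as enrichment, and was used only within this list.

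Start positions were converted to count from 1. Windows were assigned by midpoint and groups chained at gaps of up to 10 kb. Density used the span from first to last listed peak. Named regions followed a rule: the 20 strongest, 5 widest and 5 weakest peaks, the 10 fullest windows, groups of 4 or more and the 10 longest gaps. The members, regions and this rule were chosen with earlier results of these data known. No test was run. Functions were checked on simulated positions. Alternatives were score thresholds, merging, distances, window edges and boundaries. Tables were handled with pandas 2.3.3 and NumPy 2.4.6 under Python 3.11.15, intervals came from SciPy 1.17.1, and Matplotlib 3.10.9 drew the plots.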

Additional observations from a re-analysis of the deposited data

How the results depend on the processing

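The density ratio of chromosome 2 to the other autosomes, 1.30, lay between 1.29 and 1.37 under the 5 alternatives tried. The 13 crowded windows fell to 2 when only scores of 100 or more counted, and to 3 from the list's median score up, which leave 223 and 297 peaks to count. The distal share, 31.9%, was 36.3% among scores of 100 or more and 26.9% with the boundary at 160 Mb. The share with a neighbour, 33.5%, was 9.86% within 1 kb, 23.6% within 5 kb, 47.9% within 20 kb and 59.7% within 50 kb. At these distances the other autosomes had 9.08%, 20.6%, 38.4% and 54.9%, and a wider distance cannot give a lower share. Within 10 kb, the share on chromosome 2 was 21.1% among scores of 100 or more and 22.2% from the median score up. With peaks within 1 kb merged it was 26.0%. The other autosomes had 19.7%, 23.7% and 21.6% there, so from the median score up the order was reversed. The distal minus rest difference in median score, 6.05, was 38.1 among scores of 100 or more, 2.34 with the boundary at 150 Mb and 13.7 at 160 Mb. That in median width, −7 bp, reversed to 34.5 bp among scores of 100 or more. All these intervals included 0, and the cause was not tested. Leaving out the peaks of 98 to 99 Mb, an alternative added after the data were seen, changed none of the 7 results beyond its interval or 1.5 times its count. Chromosome lengths of mm9 were not used here, and the end of the last peak stood in for them. No replicate could be left out, and depth was not analysed here.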

Other observations

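Windows of like fullness differed in strength along chromosome 2. Of the 28 windows with 7 or more peaks, 3 held no peak with a score of 100. They were chr2:152000001-153000000, with 8 peaks and a highest score of 86.6, chr2:10000001-11000000, with 7 peaks up to 84.1, and chr2:18000001-19000000, with 7 peaks up to 89.1. In contrast, chr2:63000001-64000000 held 7 peaks of which 5 reached 100, and had the highest median score of the 28 windows, 171.5. In the steps of 10 Mb, scores of 100 or more belonged to 1 of 10 peaks from 40 to 50 Mb and to 8 of 38 from 20 to 30 Mb, but to 15 of 29 from 90 to 100 Mb. These steps are examples chosen for their low and high shares, and the share over all of chromosome 2 was 39.3%. Of the 15 peaks from 90 to 100 Mb, 4 lay in chr2:98000001-99000000. That window lies in the neighbourhood described above, where a stretch is known to collect reads whatever the antibody.

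Counts of adjacent windows were alike to a degree. Over the 176 pairs of adjacent 1 Mb windows on chromosome 2, Pearson's r was 0.46, a description over windows of 1 library, and the other autosomes ranged from 0.12 to 0.66. The variance of the window counts was 5.63 times their mean, after chromosome 8 with 10.9 and one other autosome.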
